A study of Mus musculus with 6 samples.

Results

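The Sox17-positive arterial endothelium of the mouse kidney was examined in 379 cells, out of 76774 barcodes in 6 libraries. A barcode was counted as a member when it held at least 1000 UMIs (unique molecular identifiers, each standing for 1 captured RNA molecule), at most 50% mitochondrial UMIs and UMIs of at least 3 of 7 pan-endothelial genes (Pecam1, Cdh5, Flt1, Kdr, Emcn, Egfl7 and Ptprb). It also had to hold at least 1 UMI of Sox17 or Sema3g, and no UMI of Plvap, Ehd3, Ptprc, Col1a1 or C1qa. The proximal tubule genes Lrp2, Slc34a1, Slc5a12 and Slc22a6 together could take at most 0.2% of its UMIs. The members were thus selected on the UMIs of these 18 genes, so the levels of these genes are given below as a description, with no test.

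Sox17 encodes a transcription factor of arterial endothelium (chr1:4561151-4567784, minus strand, GRCm39), and Sema3g a secreted semaphorin made by arterial endothelium (chr14:30939808-30952309, plus strand, GRCm39). In the kidney, arterial endothelium lines the renal artery, its branches and the afferent arterioles that feed the glomeruli, and the descending vasa recta that carry blood into the medulla share many of its genes. Arterial endothelial cells sense pressure and flow, and they regulate the tone of the underlying smooth muscle through nitric oxide and endothelin. Plvap encodes the diaphragm protein of fenestrated capillary and venous endothelium, and Ehd3 marks the endothelium of glomerular capillaries.

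The study compared 3 sham with 3 DOCA-salt mice, all male C57BL/6 mice aged 8 to 10 weeks at purchase, with single cells of the kidney measured in 1 10x Genomics 3′ library per mouse. In the DOCA-salt mice, the left kidney was removed, and later a pellet of 50 mg deoxycorticosterone acetate (DOCA, a precursor of aldosterone that acts on the mineralocorticoid receptor) was implanted, with 1% NaCl as drinking water for 21 days. The sham mice had a sham operation, no pellet and normal water, so the effects of nephrectomy, DOCA and salt cannot be told apart. The tissue was dissociated with collagenase II, and the p-values below measure the spread between these mice. The libraries held 11058 to 14449 barcodes and 93172739 to 137819127 UMIs. Of all barcodes, 50910 had at least 1000 UMIs and at most 50% mitochondrial UMIs (called "kept" below), and 3292 of these passed the rule without its terms on Sox17, Sema3g, Plvap and Ehd3 (called "endothelial" below).

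The members numbered 68, 72 and 76 in the sham mice and 60, 43 and 60 in the DOCA-salt mice. Their summed UMIs were 318575 to 575167 per mouse, and the median UMIs per cell were 3912.5 to 5809.5. No barcode was shared by members of 2 libraries. Both Sox17 and Sema3g were detected in 217 members, Sox17 alone in 131 and Sema3g alone in 31. Just inside the limits lay 55 members with a single UMI of Sox17 and Sema3g together and 25 with 3 pan-endothelial genes. Just outside lay 96 endothelial barcodes with no UMI of Sox17, Sema3g, Plvap or Ehd3, 202 barcodes that failed by 1 UMI of Plvap, and 43 that failed by 1 UMI of Ehd3. Sox17 was at 648, 655 and 572 CPM (UMIs of the gene scaled to a common total per mouse) in the summed cells of the sham mice and at 831, 709 and 1056 CPM in those of the DOCA-salt mice. Sema3g was at 286, 472 and 316 CPM in sham mice and at 418, 257 and 248 CPM in DOCA-salt mice.

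The arterial label was checked with genes that the rule did not use. Cldn5, a tight junction protein of endothelium that is high in arteries, was at 1468, 1449 and 1453 CPM in sham mice and 1911, 1538 and 923 CPM in DOCA-salt mice. Fbln5, an elastic fibre protein, was at 800.0, 977 and 913 CPM in sham mice and 1274, 649.8 and 555 CPM in DOCA-salt mice. Gja4, an arterial gap junction protein, was at 341, 387 and 278 CPM in sham mice and 526, 257 and 299 CPM in DOCA-salt mice. The groups overlapped for each of these genes. The arterial gap junction gene Gja5, the ephrin ligand Efnb2 and the kinase Bmx were also found in every mouse, at 46.0 to 219 CPM, 166 to 289 CPM and 50.4 to 115 CPM. Efnb2 does not set these cells apart, as it was at 272 to 524 CPM in Ehd3-positive and at 145 to 238 CPM in Plvap-positive cells. Gja5 had a mean of 119 CPM in the members, 54.5 CPM in Plvap-positive and 52.1 CPM in Ehd3-positive cells. It was higher in the members than in both in 4 of 6 mice. Cldn5 and Fbln5 were higher in the members than in both in all 6 mice. For Gja4 and Bmx, only the levels in the members are given here.

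Genes of the descending vasa recta were also found among the members. The water channel Aqp1 was at 1535 to 1931 CPM in sham mice and 1818 to 2677 CPM in DOCA-salt mice, and the urea transporter Slc14a1 was at 99.1 to 337 CPM in sham mice and 141 to 643 CPM in DOCA-salt mice. Aqp1 is also a gene of the proximal tubule, and the part of tubule RNA in its level was not tested. The 4 vasa recta markers summed to 1900 to 2723 CPM in sham and 2353 to 3595 CPM in DOCA-salt members. In Plvap-positive cells they summed to 2012 to 4394 CPM, so they do not set the members apart from these. A UMI of Gja5, Fbln5 or Bmx together with a UMI of Slc14a1 or Scin (an actin-severing protein) was found in 149 cells, the first set alone in 148, the second set alone in 31, and neither in 51. Cells rich in these genes were then described, a choice made after seeing the values. Of the 20 cells with the most UMIs of Gja5, Fbln5 and Bmx (32 to 126), 3 held a UMI of Slc14a1 or Scin, and none held more than 4. Of the 20 cells with the most UMIs of Slc14a1 and Scin (23 to 77), 19 held a UMI of Gja5, Fbln5 or Bmx, with a median of 8.5. The members thus include cells rich in arterial genes and cells rich in descending vasa recta genes. Some deep members held some genes of these sets and lacked others. A cell of 22212 UMIs in sham mouse 1 held 23 of Sox17, 10 of Fbln5, 2 of Gja4, 1 of Bmx and 2 of Scin. It held none of Cldn5, Gja5, Slc14a1 or Aqp1. A cell of 18272 UMIs in DOCA-salt mouse 3 held 14 of Sox17, 10 of Fbln5, 5 of Gja4 and 1 of Scin. It also held none of Cldn5, Gja5, Slc14a1 or Aqp1. The name arterial is used here for what the rule selects. Cells with genes of both sets made up 34.9% ± 4.28 of the members in sham mice and 45.1% ± 3.24 in DOCA-salt mice (SD, n = 3, exact permutation test, two-sided, p = 0.1). The design of 3 against 3 mice allows no p below 0.1.

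**Figure D1:**
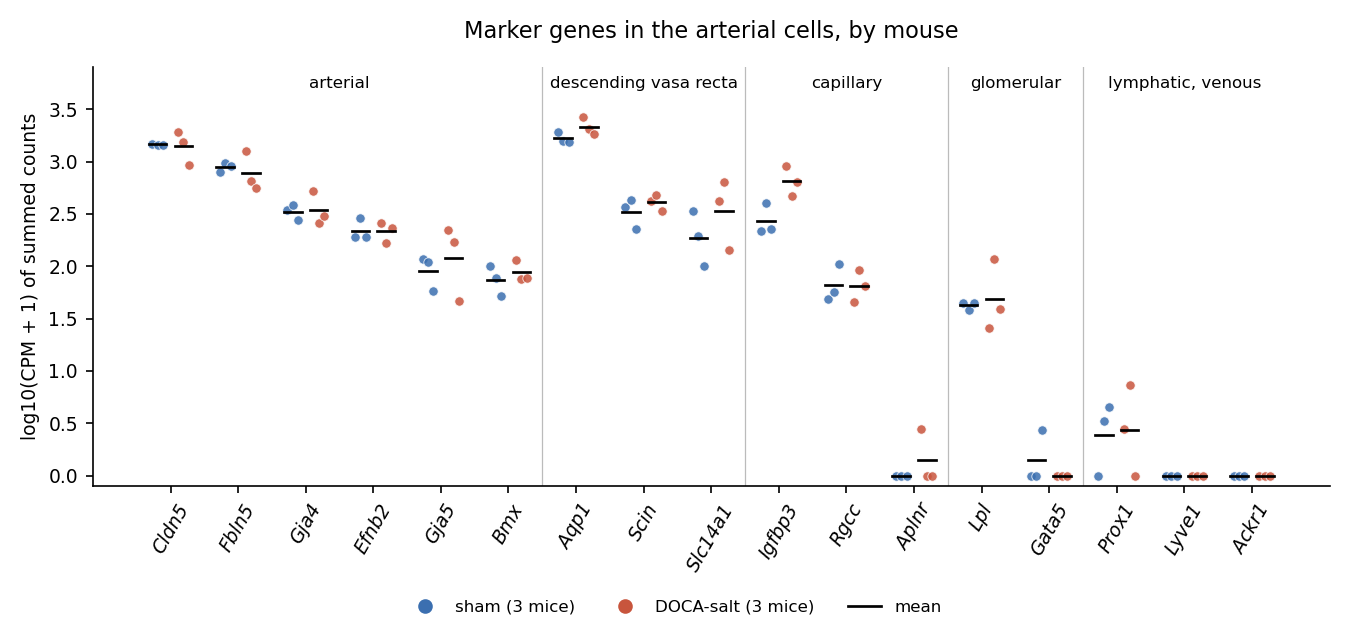
Level of 17 marker genes in the arterial cells, as log10 of CPM plus 1 of the summed counts (vertical axis), with 1 point per mouse, blue for sham and red for DOCA-salt, and a black line at the mean of 3 mice. The arterial and descending vasa recta genes are present in all 6 mice. The capillary marker Igfbp3 has a higher mean than the arterial genes Gja5 and Bmx in both groups, while Lyve1 and Ackr1 lie at 0.

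To compare how often cells held a marker without an effect of depth, each cell was thinned to 1000 UMIs. After thinning, 49.3% ± 2.68 of sham members and 54.8% ± 17.3 of DOCA-salt members held Cldn5 (SD, n = 3, exact permutation test, two-sided, p = 0.6), against 0.300% and 0.167% of proximal tubule barcodes, which should lack it. These barcodes were chosen to hold no UMI of the 7 pan-endothelial genes, so the share of an endothelial gene in them is low in part by that choice. The median depths were 3912.5 to 5809.5 UMIs in the members and 2414 to 5600 UMIs in the proximal tubule barcodes. Without thinning, the shares of members with Cldn5 were 65.4% in sham and 71.5% in DOCA-salt mice. Slc14a1 was held by 13.3% ± 6.22 of sham members and 15.2% ± 6.82 of DOCA-salt members after thinning (SD, n = 3, exact permutation test, two-sided, p = 0.7), and by 21.6% and 24.9% without thinning. Its share in proximal tubule barcodes was 0.0525% and 0.0161% after thinning.

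Of the capillary markers, Igfbp3, which binds insulin-like growth factors, was found in the arterial cells at 215, 400.5 and 228 CPM in sham mice and 902, 471 and 634 CPM in DOCA-salt mice, without overlap (log2 change 1.24 ± 0.26, SE, edgeR adjusted p = 0.117), while Aplnr was at 0 in 5 of 6 mice. In Plvap-positive cells Igfbp3 was at 447, 571 and 421 CPM in sham and 1010.2, 759.6 and 1307 CPM in DOCA-salt mice. Genes of other cell types were mostly low. Lyve1 of lymphatic vessels and Ackr1 of venules were at 0 in all 6 mice. Ackr1 was found in no Plvap-positive or Ehd3-positive cell either, so it does not set the members apart. The 5 venous markers summed to 88.0 to 227 CPM in sham and 146 to 207 CPM in DOCA-salt mice, against 165 to 363 CPM in Plvap-positive cells. Glomerular markers without Ehd3 summed to 166 to 331 CPM and 210 to 256 CPM, against 1027 to 2434 CPM in Ehd3-positive cells. The summed levels of the 5 lymphatic markers were 0 to 18.5 CPM in sham and 1.76 to 31.4 CPM in DOCA-salt mice, those of 5 macrophage markers (without C1qa, which the rule holds at 0) 2.31 to 15.8 CPM and 10.6 to 35.8 CPM, and those of 5 fibroblast markers (without Col1a1, also held at 0) 0 to 3.94 CPM and 8.82 to 25.6 CPM. The 7 markers of smooth muscle, renin cells and pericytes summed to 44.0 to 124 CPM in sham and 154 to 367 CPM in DOCA-salt mice. Transcripts of the tubule were present throughout: Kap, a gene of the proximal tubule, was at 1391 to 2180.2 CPM in sham and 691 to 1087 CPM in DOCA-salt mice. The 6 distal nephron markers summed to 338 to 955 CPM in sham and 205 to 2841 CPM in DOCA-salt mice. The highest of these values belonged to DOCA-salt mouse 2, in which Umod of the thick ascending limb reached 1883 CPM, against 97.2 to 655 CPM in the other 5 mice.

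Within the endothelium, 109 of 3768 genes with a mean of at least 50 CPM, rule genes left out, were higher in the arterial cells than in both Plvap-positive, Ehd3-negative cells and Ehd3-positive, Plvap-negative cells in each of the 6 mice. The 1327 endothelial barcodes with both Plvap and Ehd3 were not part of this comparison. Since the sets were cut by genes measured in the same cells, this is a description, and the genes named here were chosen after their values were seen. Mgp, an inhibitor of calcification, had a mean of 1332 CPM in arterial, 226 CPM in Plvap-positive and 358 CPM in Ehd3-positive cells. Efna5, an ephrin ligand, was at 302, 82.2 and 114 CPM, and Htra1, a secreted protease, at 204, 76.9 and 84.8 CPM in the same order. Other genes were higher on average but not in every mouse. Eln, which encodes elastin, was at 545, 109 and 162 CPM and was higher than in both other sets in 5 of 6 mice. Fn1, which encodes fibronectin, was at 165, 26.5 and 43.4 CPM, and the secreted protein gene Cytl1 at 136, 21.1 and 0.377 CPM, each higher in 4 of 6 mice.

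The first comparison asked whether DOCA-salt mice had fewer arterial cells. Members made up 14.5%, 14.8% and 15.4% of endothelial barcodes in sham mice and 11.1%, 6.33% and 9.55% in DOCA-salt mice, and the groups did not overlap. The means were 14.9% ± 0.466 and 9.0% ± 2.44 (SD, n = 3, exact permutation test, two-sided, p = 0.1, the smallest this design allows). Of all kept barcodes, members were 0.880% ± 0.117 in sham and 0.628% ± 0.136 in DOCA-salt mice (SD, n = 3, exact permutation test, two-sided, p = 0.1).

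The share depended on the limits on Plvap and Ehd3. Without these limits, a setting added after seeing the data, 63.9% ± 1.58 of endothelial barcodes in sham and 63.3% ± 2.37 in DOCA-salt mice held Sox17 or Sema3g (SD, n = 3, exact permutation test, two-sided, p = 0.7), and their share of kept barcodes was 3.75% ± 0.391 and 4.47% ± 0.368 (exact permutation test, n = 3, two-sided, p = 0.2). The barcodes selected without these limits were the 379 members and 1710 barcodes that hold Plvap or Ehd3. When each barcode was thinned to 1000 UMIs before the rule was applied, the selected barcodes were 19.8% ± 1.97 and 13.9% ± 2.22 of endothelial barcodes (exact permutation test, n = 3, two-sided, p = 0.1), but 1.01% ± 0.214 and 0.999% ± 0.119 of kept barcodes (exact permutation test, n = 3, two-sided, p = 0.9). This rested on 1 random draw. It selected 246 barcodes in sham and 260 in DOCA-salt mice, against 216 and 163 members. Their full counts can hold Plvap, Ehd3 or other genes that the stated rule limits. Barcodes with both Plvap and Ehd3 numbered 159, 136 and 120 in the sham mice and 243, 356 and 313 in the DOCA-salt mice, with median depths of 3590.5 to 4383 UMIs and 7810 to 9284 UMIs. Plvap itself was at 686, 723 and 702 CPM in the Plvap-positive cells of sham mice and at 1059, 1007 and 896 CPM in those of DOCA-salt mice, and after thinning 58.3% ± 1.14 and 62.9% ± 1.84 of these cells held it. A barcode with more UMIs or a higher Plvap level is more likely to be left out by the rule. Beyond the thinned rule, the part of depth and of the Plvap level in the lower share was not tested.

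**Figure D2:**
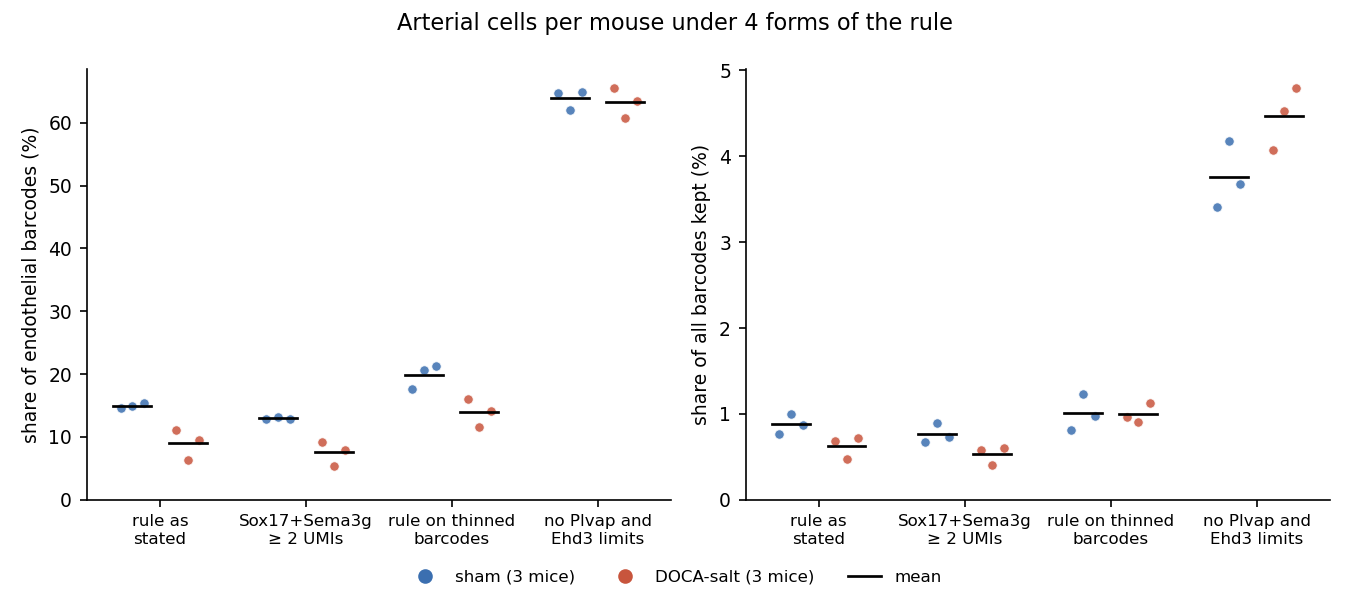
Barcodes selected by 4 forms of the rule, as a percentage of endothelial barcodes (left) and of all kept barcodes (right), with 1 point per mouse and a black line at the mean. Without the Plvap and Ehd3 limits, the selected barcodes include 1710 that hold Plvap or Ehd3. Under the rule as stated, the sham mice lie at 14.5% to 15.4% of endothelial barcodes and the DOCA-salt mice at 6.33% to 11.1%, while without the Plvap and Ehd3 limits the groups overlap.

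The second comparison asked which genes differed between DOCA-salt and sham mice within the arterial cells. UMIs were summed per mouse, and edgeR's quasi-likelihood test was applied to 6884 genes. With a Benjamini-Hochberg adjusted p below 0.05, 1 gene was higher (0.0145% of genes tested) and 1 was lower (0.0145%). Spp1 was the gene that rose. At an unadjusted p below 0.05 there were 242 higher and 276 lower genes, and the median log2 change of all genes was 0.01. DESeq2 called 7 higher genes (among them Spp1, Mal, Igfbp3, Sparc, Shroom3 and Col4a1) and 7 lower genes (among them Slco2a1, Sema6d, Kap, Inmt, Limch1 and Cdkn1a). The count rested on single mice. Without DOCA-salt mouse 2, which has the fewest members and the highest distal nephron transcripts, 10 genes were higher and 10 lower. No gene was higher without sham mouse 3 (190 at an unadjusted p below 0.05), 3 were higher without DOCA-salt mouse 1, and no gene was lower without sham mouse 1, sham mouse 2 or DOCA-salt mouse 3 (230, 342 and 271 at an unadjusted p below 0.05).

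Spp1 encodes osteopontin, a secreted matrix phosphoprotein of injured tubules, bone and macrophages (chr5:104582165-104589235, plus strand, GRCm39, overlapping Gm42793 on the same strand). It was at 177, 245 and 151 CPM in the arterial cells of sham mice and at 2494, 759.6 and 1281 CPM in those of DOCA-salt mice. All 3 DOCA-salt mice lay above all sham mice, with a log2 change of 2.96 ± 0.34 (SE, edgeR adjusted p = 0.00248). In non-endothelial barcodes, Spp1 was at 828, 1561 and 976 CPM in sham mice and at 4744, 2992 and 5305 CPM in DOCA-salt mice, higher than in the arterial cells of the same mouse in all 6. In Plvap-positive cells it was at 193, 183 and 162 CPM in sham and 1251, 479 and 1464 CPM in DOCA-salt mice, and the difference of its change between arterial and Plvap-positive cells was 0.39 ± 0.25 on the log2 scale (SE, edgeR adjusted p = 0.753).

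The Spp1 UMIs were unevenly spread over the members. A single cell held 86.6%, 38.4% and 40.5% of them in DOCA-salt mice 1, 2 and 3, and 26.7%, 45.3% and 9.20% in the sham mice. In DOCA-salt mouse 1, this cell held 1223 of 1413 UMIs. Without the highest cell of each mouse, a setting added after seeing the data, the log2 change was 1.98 ± 0.28 (SE, edgeR adjusted p = 0.0280). After thinning, 16.3% ± 1.75 of sham and 41.9% ± 16.2 of DOCA-salt members held a Spp1 UMI (SD, n = 3, exact permutation test, two-sided, p = 0.1), and without thinning 51.2% and 84.4% did. The thinned shares were below those of the proximal tubule barcodes, at 47.1% and 82.4%. Tubule cells can make Spp1 themselves, and the part of RNA from other cells in the arterial counts was not tested. The change lost its call without sham mouse 3 (log2 change 2.81, adjusted p = 0.0592) and with at least 2 UMIs of Sox17 and Sema3g (1.51, adjusted p = 0.0608).

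Genes close to the threshold are given as values and were chosen after these were seen. Mal, a membrane proteolipid, was at 238, 248 and 226 CPM in sham mice and 494, 530.5 and 514 CPM in DOCA-salt mice, with little spread in either group (log2 change 1.09 ± 0.18, SE, edgeR adjusted p = 0.0532). Sema6d, a transmembrane semaphorin, was at 219, 229 and 344 CPM in sham mice and 120.0, 97.3 and 110.0 CPM in DOCA-salt mice (-1.30 ± 0.23, SE, edgeR adjusted p = 0.0630). Slco2a1, a prostaglandin transporter, was at 307, 435 and 439.9 CPM in sham mice and 226, 104 and 92.1 CPM in DOCA-salt mice (-1.48 ± 0.28, SE, edgeR adjusted p = 0.107). The groups did not overlap for any of these genes. Of all genes tested, 6.91% did not overlap with DOCA-salt mice higher and 5.9% with DOCA-salt mice lower.

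Inmt and Tagln are given with their values in other cells. Inmt, a methyltransferase, was at 55.2, 46.3 and 93.9 CPM in sham and 8.82, 18.8 and 10.2 CPM in DOCA-salt arterial cells (-2.48 ± 0.42, SE, edgeR adjusted p = 0.0538). In non-endothelial barcodes it was at 415 to 572 CPM in sham and 97.5 to 135 CPM in DOCA-salt mice. Tagln, a contractile protein of smooth muscle, was at 33.5, 9.26 and 8.69 CPM in sham and 52.9, 257 and 146 CPM in DOCA-salt mice (3.04 ± 0.56, SE, edgeR adjusted p = 0.0853). In non-endothelial barcodes it was at 46.8 to 69.1 CPM in sham and 91.2 to 137 CPM in DOCA-salt mice. A single cell held 83.3%, 91.5% and 93.0% of the Tagln UMIs in the arterial cells of the DOCA-salt mice. The part of tubular or smooth muscle RNA in these values was not tested.

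**Figure D3:**
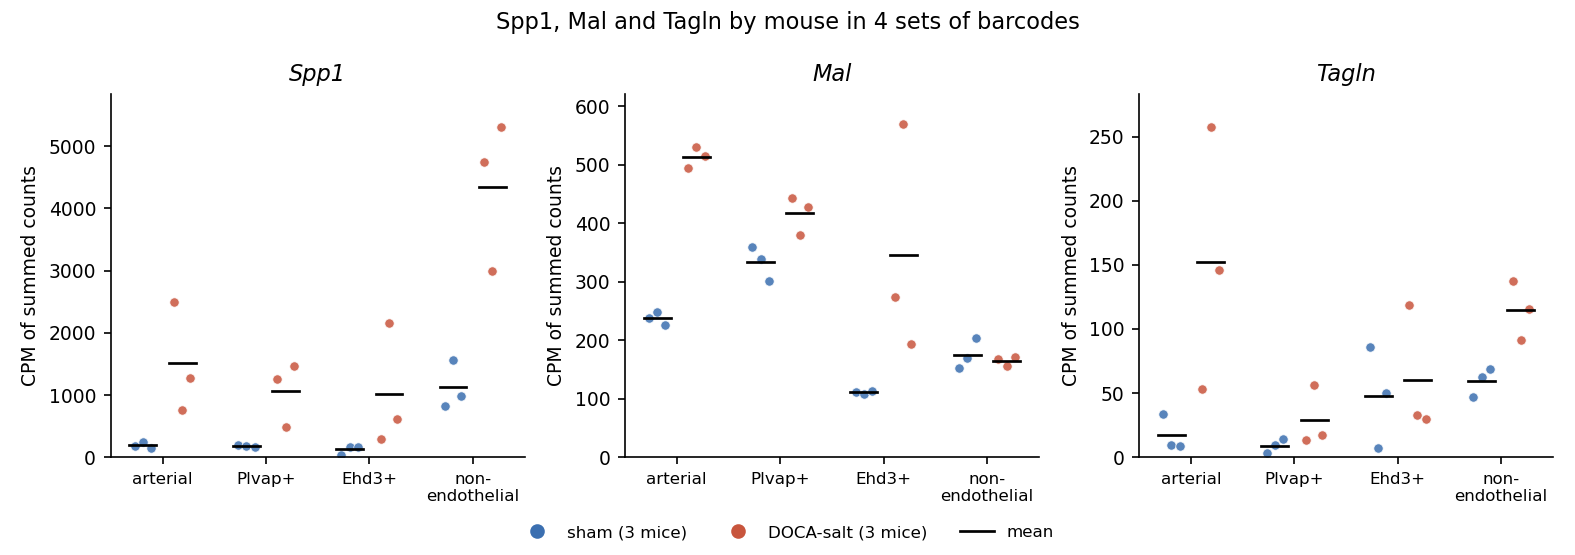
CPM of the summed counts (vertical axes) of Spp1, Mal and Tagln in arterial, Plvap-positive, Ehd3-positive and non-endothelial barcodes, with 1 point per mouse and a black line at the mean. The mean of Spp1 is highest in non-endothelial barcodes in both groups, and Mal is at 226 to 248 CPM in the arterial cells of sham mice and at 494 to 530.5 CPM in those of DOCA-salt mice.

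The genes of vessel wall matrix were then examined. Endothelial cells make the basement membrane they rest on, from collagen IV, laminins, nidogen and perlecan, and arterial cells also make parts of the elastic fibres. Of 31 listed genes of basement membrane and elastic fibre, 27 were tested. None passed the threshold by edgeR's test, 6 had an unadjusted p below 0.05, and DESeq2 called Col4a1 and Sparc. No gene of the gene groups in the paragraphs on identity, tone, shear, hormones, ATP, inflammation and growth factors was called by edgeR or by DESeq2, and their counts at an unadjusted p below 0.05 are given in parentheses. These counts are to be read beside the 518 of all 6884 genes tested that had an unadjusted p below 0.05 in edgeR's test. The log2 changes of the 27 matrix genes were positive for 17 and negative for 10, with a median of 0.20 against 0.01 for all genes. For 6 of them (Col4a1, Col4a2, Lama4, Hspg2, Nid1 and Sparc) the DOCA-salt mice lay above all sham mice, and for none below, against 6.91% and 5.9% of all genes tested. The smooth muscle and fibroblast markers given above were also higher in the arterial cells of all DOCA-salt mice, and in non-endothelial barcodes Col4a1 was at 79.4 to 90.7 CPM in sham and 134 to 146 CPM in DOCA-salt mice, and Sparc at 24.2 to 43.8 CPM and 75.5 to 122 CPM. Their part in these values was not tested.

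Col4a1, a chain of collagen IV, was at 234, 189.8 and 202 CPM in sham mice and 316, 446 and 545 CPM in DOCA-salt mice (log2 change 1.03 ± 0.23, SE, edgeR adjusted p = 0.117). Col4a2, its partner chain, was at 98.5, 74.1 and 130.4 CPM in sham mice and 141, 235 and 309 CPM in DOCA-salt mice (1.12 ± 0.29, SE, adjusted p = 0.237). Nid1, which links laminin to collagen IV, was at 21.7, 13.9 and 17.4 CPM in sham mice and 47.6, 65.9 and 43.5 CPM in DOCA-salt mice (1.49 ± 0.35, SE, adjusted p = 0.156). For all 3 genes the DOCA-salt values lay above the sham values, with the test missing the threshold.

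Sparc, a collagen-binding matrix protein, was at 1218, 755 and 1059 CPM in sham mice and 1821, 2668 and 1731 CPM in DOCA-salt mice (1.01 ± 0.24, SE, edgeR adjusted p = 0.156). In Plvap-positive cells of the same mice, the changes of Col4a1, Col4a2, Nid1 and Sparc passed the threshold, for example with 337, 329 and 316 CPM of Col4a1 in sham mice and 743, 985 and 917 CPM in DOCA-salt mice (log2 change 1.41 ± 0.15, SE, edgeR adjusted p = 0.00176). The difference between the changes in arterial and Plvap-positive cells did not pass for Col4a1 (-0.41 ± 0.18, SE, adjusted p = 0.598) or Nid1 (0.04 ± 0.32, SE, adjusted p = 0.992). Of the elastic fibre and calcification genes, Eln was at 788, 361 and 362 CPM in sham and 1112, 518 and 130.4 CPM in DOCA-salt mice (0.20, edgeR adjusted p = 0.956), and Mgp at 2215, 1072 and 1059 CPM in sham and 1763, 1265 and 616 CPM in DOCA-salt mice. Both overlapped between the groups. Timp3, an inhibitor of matrix proteases, had a log2 change of -0.02 ± 0.23.

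**Figure D4:**
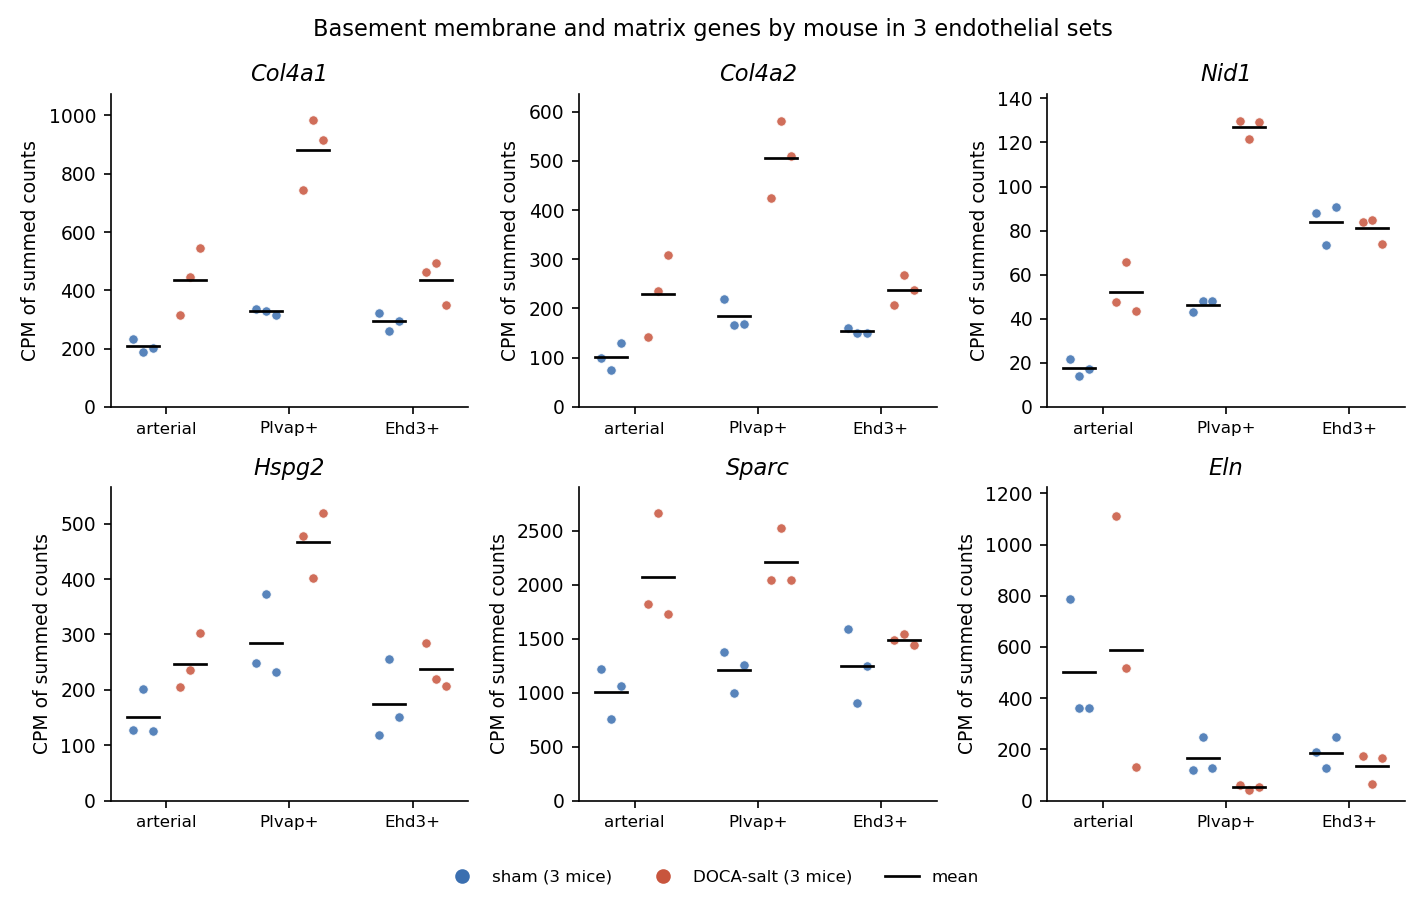
CPM of the summed counts (vertical axes) of 6 genes of basement membrane and elastic fibre in arterial, Plvap-positive and Ehd3-positive cells, with 1 point per mouse and a black line at the mean. In arterial cells the DOCA-salt points of Col4a1, Col4a2, Nid1, Hspg2 and Sparc lie above the sham points, and those of Eln, at 1112, 518 and 130.4 CPM, overlap with the sham points.

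Of 16 tested genes of arterial identity, none passed (3), with 6 positive and 10 negative log2 changes and a median of -0.06. Mecom, a transcription factor of arterial cells, was at 1302, 1546 and 1511 CPM in sham mice and 1145, 1403 and 1079 CPM in DOCA-salt mice (log2 change -0.29 ± 0.19, SE, edgeR adjusted p = 0.786). In this list 1 gene lay lower and 1 higher without overlap, against 5.9% and 6.91% of all genes tested. Alox12, a lipoxygenase, was at 57.1, 64.8 and 52.2 CPM in sham and 38.8, 25.1 and 30.7 CPM in DOCA-salt mice (adjusted p = 0.420). Unc5b, a netrin receptor, was at 19.7, 20.8 and 22.6 CPM in sham and 30.0, 25.1 and 53.7 CPM in DOCA-salt mice (adjusted p = 0.689). Of 14 genes of Notch signalling, which specifies arterial fate, 11 were tested and none passed (0), with a median log2 change of 0.02. The ligand Jag1 was at 197, 507 and 276 CPM in sham and 505, 270.0 and 317 CPM in DOCA-salt mice. The receptor Notch1 was at 217, 218 and 256 CPM in sham and 215, 176 and 238 CPM in DOCA-salt mice. The target Hes1 was at 90.6, 176 and 113 CPM in sham and 164, 141 and 207 CPM in DOCA-salt mice (0.42 ± 0.25, SE, adjusted p = 0.737).

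Genes of vascular tone were given next, since the model is one of hypertension. None of 14 tested, of 21 listed, passed the threshold (0), and their median log2 change was -0.06. Nos3, the endothelial nitric oxide synthase, was at 282, 162 and 318 CPM in sham mice and 214, 235 and 143 CPM in DOCA-salt mice (-0.40 ± 0.26, SE, edgeR adjusted p = 0.779). Edn1, which encodes the vasoconstrictor endothelin, was at 467, 287 and 236 CPM in sham mice and 323, 154 and 317 CPM in DOCA-salt mice (-0.33 ± 0.28, SE, adjusted p = 0.839). Both genes overlapped between the groups. Cav1, the caveolin that binds the synthase, was at 294, 275 and 316 CPM in sham and 406, 377 and 343 CPM in DOCA-salt mice (0.32 ± 0.18, SE, adjusted p = 0.728). Calcrl and its partner Ramp2, which form the adrenomedullin receptor, had log2 changes of 0.14 ± 0.27 and -0.17 ± 0.20.

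Genes that respond to shear stress gave 12 tested of 14 listed, none past the threshold (3), with a median of -0.11. The flow-induced transcription factor Klf2 was at 2995, 4361 and 3371 CPM in sham mice and 3981, 2495 and 3150.4 CPM in DOCA-salt mice, and Klf4 at 1375, 1514 and 1573 CPM in sham and 1264, 1070.4 and 1442 CPM in DOCA-salt mice. Ccn1, a matricellular protein induced by YAP, was at 189, 199 and 153 CPM in sham and 296, 317 and 286 CPM in DOCA-salt mice, without overlap (0.71 ± 0.19, SE, edgeR adjusted p = 0.267). Of 22 genes for channels, pumps and gap junctions, 15 were tested and none passed (3), with a median of 0.06. Among them the mechanosensitive cation channel Trpv4 was at 65.0, 50.9 and 52.2 CPM in sham and 79.4, 72.2 and 92.1 CPM in DOCA-salt mice (0.51, adjusted p = 0.661).

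DOCA acts on the mineralocorticoid receptor, so the corticosteroid receptors and their targets were listed. Nr3c2, the mineralocorticoid receptor, was at 359, 382 and 344 CPM in sham mice and 240.0, 251 and 299 CPM in DOCA-salt mice. The DOCA-salt values all lay below the sham values, with a log2 change of -0.48 ± 0.19 (SE, edgeR adjusted p = 0.516). Nr3c1, the glucocorticoid receptor, was at 317, 292 and 353 CPM in sham and 330.0, 314 and 376 CPM in DOCA-salt mice (0.06 ± 0.19). The kinase Sgk1, a target of both receptors, was at 307, 417 and 372 CPM in sham and 418, 210.3 and 373 CPM in DOCA-salt mice (-0.15 ± 0.23). Of 22 listed genes, 12 were tested and none passed (4). Their median log2 change was -0.25, with 4 positive and 8 negative. The glucocorticoid-responsive genes Per1 (67.0, 94.9 and 71.3 CPM in sham, 45.9, 40.8 and 48.6 CPM in DOCA-salt mice) and Klf9 (419.7, 382 and 468 CPM in sham, 371, 239 and 302 CPM in DOCA-salt mice) did not overlap between the groups either (adjusted p = 0.371 and 0.544), so 3 of the 12 lay lower without overlap, against 5.9% of all genes tested.

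The study asked about extracellular ATP, and few UMIs of its receptors were found in arterial cells. Of 20 purinergic and adenosine receptor genes, only P2ry2 passed the filter on low counts, and 6 had no UMI in any member. The 20 genes summed to 69.5 to 72.9 CPM in sham and 86.5 to 118 CPM in DOCA-salt members, a difference that was not tested. Their sums were 66.4 to 87.0 CPM in Plvap-positive cells, 126 to 185 CPM in Ehd3-positive cells and 49.8 to 85.7 CPM in non-endothelial barcodes. P2ry2, a receptor for ATP and UTP, was at 23.6, 25.5 and 17.4 CPM in sham and 12.4, 22.0 and 25.6 CPM in DOCA-salt mice (log2 change -0.22 ± 0.42, SE, edgeR adjusted p = 0.947). P2rx7, the ATP-gated channel upstream of the inflammasome, was at 15.8, 13.9 and 15.6 CPM in sham and 35.3, 15.7 and 28.1 CPM in DOCA-salt mice. P2rx4, a related channel, was at 13.8, 11.6 and 13.9 CPM in sham and 19.4, 18.8 and 15.3 CPM in DOCA-salt mice. Panx1, a channel that releases ATP, was at 1.74 to 9.26 CPM in sham and 3.14 to 12.4 CPM in DOCA-salt mice. These 3 genes were below the filter and were not tested. After thinning, 1.18% of sham and 2.48% of DOCA-salt members held P2rx7 (exact permutation test, n = 3, two-sided, p = 0.3).

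Nucleotide handling and pyroptosis genes were also compared. Of 13 nucleotide genes, 5 were tested and none passed (2), with a median log2 change of -0.34. Alpl, an alkaline phosphatase that hydrolyses extracellular nucleotides, was at 112, 132 and 143 CPM in sham and 106, 75.3 and 66.5 CPM in DOCA-salt mice (-0.65 ± 0.23, SE, edgeR adjusted p = 0.446). Of 12 pyroptosis genes, 4 were tested and none passed (1), with a median of -0.10. Casp4, an inflammatory caspase, was at 144, 90.3 and 108 CPM in sham and 44.1, 69.1 and 86.9 CPM in DOCA-salt mice (-0.84 ± 0.28, SE, adjusted p = 0.394).

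Inflammatory gene groups showed no gene past the threshold. Among 20 genes of leukocyte adhesion and cytokines, 15 were tested (1), with a median log2 change of -0.11. The adhesion molecule Vcam1 was at 242, 231 and 146 CPM in sham and 289, 261 and 123 CPM in DOCA-salt mice, and the macrophage growth factor Csf1 was at 13.8, 16.2 and 27.8 CPM in sham and 37.1, 53.4 and 66.5 CPM in DOCA-salt mice (1.34, edgeR adjusted p = 0.318). The 18 interferon response genes had a median of -0.10 (2), and the GTPase Iigp1 was at 313, 204 and 184 CPM in sham and 148, 107 and 130.4 CPM in DOCA-salt mice (-0.88, adjusted p = 0.265). Of 10 antigen presentation genes (3), the class I gene H2-K1 had a log2 change of 0.21 ± 0.20. The class II genes H2-Aa, H2-Eb1 and Cd74 lay higher in all DOCA-salt mice (against 6.91% of all genes tested), H2-Eb1 at 9.85, 23.1 and 8.69 CPM in sham and 44.1, 40.8 and 38.4 CPM in DOCA-salt mice (1.58, adjusted p = 0.224). H2-Ab1, the other class II gene listed, was not among the genes without overlap. The log2 change of Cd74, 1.08, was -0.17 without the highest Spp1 cell of each mouse and -0.05 with the rule on thinned barcodes. In non-endothelial barcodes H2-Eb1 had means of 164 CPM in sham and 632 CPM in DOCA-salt mice, and the part of this RNA in the arterial values was not tested.

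All 22 genes of the immediate early and dissociation response were tested, none passed (7), and 16 of their log2 changes were negative, with a median of -0.32. For 5 of them (Fos, Fosb, Jun, Egr1 and Ier3) all DOCA-salt mice lay below the sham mice, and for 2 (Hspb1 and Hspa8) above, against 5.9% and 6.91% of all genes tested. Egr1 was at 1892, 1826 and 2173 CPM in sham and 925, 888 and 1688 CPM in DOCA-salt mice (-0.78, edgeR adjusted p = 0.366). The growth factor lists were close to the median of all genes. The 13 tested genes of VEGF, angiopoietin and apelin signalling (2) had a median log2 change of -0.06, with Nrp1, a VEGF co-receptor, at -0.20 ± 0.19 and the angiopoietin receptor Tek at -0.06 ± 0.19. The 17 tested genes of TGF-beta and BMP signalling (2) had a median of 0.06, and the ligand Bmp2 was at 59.1, 44.0 and 64.3 CPM in sham and 86.5, 122 and 105 CPM in DOCA-salt mice (0.84, adjusted p = 0.335). Of 8 lipid uptake genes, 7 were tested (1), with a median of 0.46, and the fatty acid carrier Fabp4 ranged widely, at 705, 2347 and 642 CPM in sham and 1481, 694 and 3693 CPM in DOCA-salt mice (0.65 ± 0.51, SE, adjusted p = 0.818). The 13 mitochondrially encoded respiratory chain genes (0) had a median of -0.19.

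The last comparison asked where the change in arterial cells differed from that in capillary cells, using a model with the mouse as a block and both sets of sums. The 1300 Plvap-positive, Ehd3-negative cells were compared first. The change differed for 5 of 10022 genes, more positive in arterial cells for 4 (0.0399%) and more negative for 1 (0.00998%), and 774 genes had an unadjusted p below 0.05. The rule for the Plvap-positive set put no limit on Sox17 or Sema3g, and the arterial and vasa recta markers in it did not all lie the same way. After thinning, the mean share of cells was lower in DOCA-salt mice for 6 of the 8 arterial markers and higher for 2 (Gja4 and Efnb2), and 3 (Sox17, Bmx and Fbln5) were lower without overlap. Of the 4 vasa recta markers, 3 (Slc14a1, Aqp1 and Scin) were lower without overlap and Slc5a3 had a higher mean. Aqp1 is also a gene of the proximal tubule, whose barcodes held it in 10.2% and 11.3% of cases after thinning in sham and DOCA-salt mice, and its share in the Plvap-positive cells is not read as expression there. Without thinning, Bmx and Fbln5 stayed lower without overlap, Efnb2 was higher without overlap, and all 4 vasa recta markers overlapped. After thinning, Fbln5 was found in 13.7% ± 2.13 of Plvap-positive cells of sham and 9.37% ± 1.34 of those of DOCA-salt mice, and Slc14a1 in 11.1% ± 2.85 and 6.42% ± 0.644 (SD, n = 3, exact permutation test, two-sided, p = 0.1 for each, the smallest this design allows). Efnb2 was held by 15.7% ± 3.06 and 17.0% ± 2.30 (SD, n = 3, exact permutation test, two-sided, p = 0.7). No share over all genes of this set was computed to stand beside these marker counts. The part of a changed mix of cells in the differences below was not tested. Each call below was lost when at least 2 of the 6 mice were left out in turn, so these rest on few mice.

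Limch1, an activator of non-muscle myosin, was at 483, 674 and 527 CPM in sham and 353, 229 and 268 CPM in DOCA-salt arterial cells, without overlap. In Plvap-positive cells it was at 336, 557 and 367 CPM in sham and 481, 431 and 541 CPM in DOCA-salt mice, which overlapped. The difference of the changes was -1.24 ± 0.18 on the log2 scale (SE, edgeR adjusted p = 0.0197).

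S100a4, a calcium-binding protein, was at 599, 519 and 793 CPM in sham and 662, 493 and 432 CPM in DOCA-salt arterial cells. In Plvap-positive cells it fell, from 545, 418 and 508 CPM in sham to 228, 175 and 161 CPM in DOCA-salt mice (log2 change -1.40, adjusted p = 0.00292). The difference was 1.09 ± 0.17 (SE, edgeR adjusted p = 0.0197). Stmn2, a regulator of microtubules that is also in the list of arterial identity, was at 258, 215 and 319.9 CPM in sham and 259, 160.1 and 76.7 CPM in DOCA-salt arterial cells. In Plvap-positive cells it fell, from 26.8, 55.1 and 67.4 CPM in sham to 6.24, 4.03 and 6.44 CPM in DOCA-salt mice (-3.19, adjusted p = 0.00292). The difference was 2.37 ± 0.41 (SE, edgeR adjusted p = 0.0395).

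Npnt, a basement membrane ligand of integrins, was at 331, 317 and 271 CPM in sham and 464, 449 and 611 CPM in DOCA-salt arterial cells, against 520.4, 284 and 303 CPM and 207, 271 and 249 CPM in Plvap-positive cells. The difference was 1.27 ± 0.21 (SE, edgeR adjusted p = 0.0273). Hpgd, which inactivates prostaglandins, was at 171, 94.9 and 106 CPM in sham and 397, 342 and 107 CPM in DOCA-salt arterial cells, against 374, 113 and 299 CPM and 129, 207 and 97.9 CPM in Plvap-positive cells. The difference was 1.92 ± 0.32 (SE, edgeR adjusted p = 0.0273). For Limch1, S100a4, Stmn2, Npnt and Hpgd, the change within arterial cells alone did not pass the threshold in edgeR's test (adjusted p of 0.117, 0.804, 0.653, 0.299 and 0.371). DESeq2 called Limch1 in arterial cells (adjusted p = 0.0157). The log2 change of Hpgd in arterial cells, 1.16, was -0.30 with the rule applied to thinned barcodes and -0.79 with no Plvap and Ehd3 limits, the second a setting chosen after seeing the data. With no such limits, the changes of Npnt and Limch1 also took the opposite sign, with 0.19 for Limch1.

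**Figure D5:**
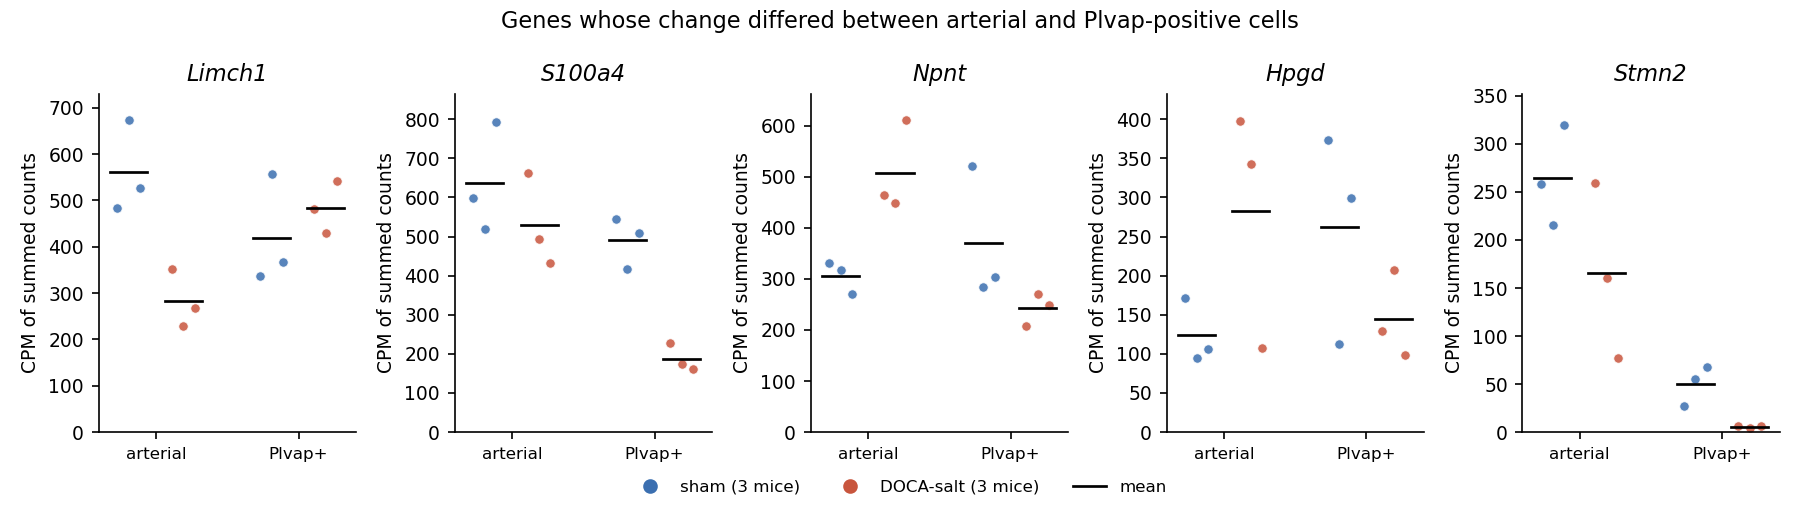
CPM of the summed counts (vertical axes) of Limch1, S100a4, Npnt, Hpgd and Stmn2 in arterial and Plvap-positive cells, with 1 point per mouse and a black line at the mean. Limch1 is lower in the arterial cells of DOCA-salt mice and overlaps in Plvap-positive cells, and Stmn2 is at 4.03 to 6.44 CPM in the Plvap-positive cells of DOCA-salt mice.

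Against the 190 Ehd3-positive, Plvap-negative cells, the change differed for none of 7701 genes (0%) by edgeR's test, with 338 at an unadjusted p below 0.05, and DESeq2 was not run on this comparison. With 18 to 48 such cells per mouse, the Ehd3-positive sums were thin. The 5 genes with the smallest p (Apela, Aqp2, Sfn, Magi2 and Slc25a21) had an adjusted p of 0.102.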

How the data were processed

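The deposited values are UMI counts of each gene in each barcode. The submitters' notes name Cell Ranger 9.0.0, GRCm39, Seurat 4.0.0 and R 4.0.3. An earlier Cell Ranger release stands in the file headers, and the annotation release is not given in the sources used here. The counts were whole numbers without normalization, for 33696 genes. Groups were taken from the sample titles. Members and gene lists were chosen with earlier results of these data known. Doublets were left in, and Scrublet (scanpy 1.11.5) would remove 16 of the members.

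Counts were summed per mouse over the members, and CPM are unadjusted sums. The groups were compared in edgeR 4.0.16 under R 4.3.3, with its filter on low counts, TMM scaling, the quasi-likelihood F test and Benjamini-Hochberg adjustment over all genes tested, at a threshold of 0.05. The 18 rule genes were fitted and are given as values. Some genes, the gene past the threshold in the lower direction among them, are not reported here. DESeq2 1.42.0 was an alternative. Differences between cell types were tested with each mouse as a block. Shares were compared with exact permutation tests over mice. Thinned shares are the mean chance of at least 1 UMI among 1000. Named are the rule genes, markers, 8 fixed genes (P2rx7, P2rx4, Panx1, Nr3c2, Nr3c1, Sgk1, Nos3 and Edn1) and Cldn5, from each list the genes past the threshold or else the 3 with the highest CPM, genes past the threshold, and the 5 smallest p of each difference; others are said to be chosen after their values were seen, as are further members of the lists. Settings tried were the tool, scaling, filter on low counts, doublets, mitochondrial and UMI limits, the rule's own limits, and leaving out each mouse. Fits were tested on simulated data. Coordinates come from GENCODE vM39 on GRCm39.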

Additional observations from a re-analysis of the deposited data

Results flagged for a closer look

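The change under DOCA-salt differed between arterial and Plvap-positive endothelial cells for 5 genes, by edgeR's test of the difference with the mouse as a block. The difference on the log2 scale, arterial minus Plvap-positive, was -1.24 for Limch1, 1.09 for S100a4, 1.27 for Npnt, 1.92 for Hpgd and 2.37 for Stmn2. For S100a4 and Stmn2 the change within Plvap-positive cells passed the threshold in edgeR's test, with log2 changes of -1.40 and -3.19, and the change within arterial cells did not. For Limch1, Npnt and Hpgd the change passed in neither set alone in edgeR's test, while DESeq2 called Limch1 in arterial cells (adjusted p = 0.0157). In the Plvap-positive set, 3 of 8 arterial and 3 of 4 vasa recta markers were held by a lower share of cells in all DOCA-salt mice after thinning and none by a higher one, against 2 and 0 lower and 1 and 0 higher without thinning. The share of all genes without overlap in this set was not computed, so no background stands beside these counts. Aqp1, among these vasa recta markers, is also a gene of the proximal tubule and is not read as expression there. The part of the mix of cells in these differences was not tested.

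When each mouse was left out in turn, the adjusted p of the difference reached 0.0865 for Limch1, 0.0756 for S100a4, 0.131 for Npnt, 0.173 for Hpgd and 0.215 for Stmn2. Limch1 lost its call without sham mouse 1 or 3, S100a4 without sham mouse 1 or DOCA-salt mouse 1, Npnt without sham mouse 1 or 3 or DOCA-salt mouse 1 or 3, Hpgd without sham mouse 1 or 3 or DOCA-salt mouse 1, and Stmn2 without sham mouse 3 or DOCA-salt mouse 1 or 2. The number of genes called was 1, 23, 2, 1, 15 and 10 without sham mice 1, 2 and 3 and DOCA-salt mice 1, 2 and 3.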

How the results depend on the processing

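The precision is limited by 43 to 76 cells per mouse and 3 mice per group. The count of genes higher and lower in DOCA-salt arterial cells (1 and 1) was 7 and 7 with DESeq2, 2 and 2 with scaling by library size only, 80 and 40 with no filter on low counts, 2 and 1 without doublets, 2 and 2 with at most 20% mitochondrial UMIs, 8 and 5 with up to 1 UMI of Plvap and of Ehd3, and 34 and 11 with the rule on thinned barcodes. Settings added after seeing the data gave 628 and 437 with no Plvap and Ehd3 limits, 2 and 1 with no proximal tubule limit, and 2 and 2 without the highest Spp1 cell of each mouse. The first of these settings adds 1710 barcodes that hold Plvap or Ehd3 to the 379 members. Most of its barcodes thus hold a capillary or glomerular marker, and it is not a set of arterial cells alone. The rule on thinned barcodes selected 246 sham and 260 DOCA-salt barcodes from 1 random draw, and its fits used their full counts. These can hold Plvap or Ehd3, so it too is not a set of members alone. Leaving out 1 mouse gave 0 to 10 higher and 0 to 10 lower genes. The count of differences from Plvap-positive cells (5) was 124 with no filter, 15 without doublets, 38 with at least 2 UMIs of Sox17 and Sema3g, and 1 to 23 with 1 mouse left out, and that from Ehd3-positive cells (0) was 63 with no filter and 0 to 5 with 1 mouse left out. The arterial share of endothelial barcodes (-5.94 percentage points) was -11.9 with up to 1 UMI of Plvap and of Ehd3, -0.576 with no such limits, and -7.00 to -4.61 with 1 mouse left out. The arterial share of all barcodes kept (-0.252) was -0.527 with at most 20% mitochondrial UMIs, -0.540 with up to 1 UMI of Plvap and of Ehd3, -0.00945 with the rule on thinned barcodes, 0.713 with no Plvap and Ehd3 limits, and -0.310 to -0.174 with 1 mouse left out. With no Plvap and Ehd3 limits, log2 changes took the opposite sign and passed the threshold for Sgk1 (0.69), Tek (0.46), Rsad2 (0.54), Bmx (-1.07), Aqp1 (-0.86), Scin (-1.01), Npnt (-0.60) and Trpv4 (-0.78). Of 97 named genes, 46 took the opposite sign in at least 1 setting while passing the threshold neither there nor as reported, 24 with the rule on thinned barcodes and 22 with no Plvap and Ehd3 limits. With the latter these include Hpgd (-0.79), Slc14a1 (-0.69), Gja5 (-0.51), Bmp2 (-0.34), Cd74 (-0.14) and Limch1 (0.19). The cause of these changes was not tested.

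Replicate numbers are shared between the groups, but the deviations of samples with the same number correlated at -0.071, -0.262 and 0.0088, so they were not taken as pairs. With the number as a replicate block, 1 gene was higher and 0 were lower (193 and 223 at an unadjusted p below 0.05) in edgeR's test, and Spp1 was the gene that passed.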
